A study of Mus musculus with 8 samples.

Results

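Junctophilins and the intracellular calcium release channels they adjoin were examined in nuclei of the mouse hippocampus. The genes were the 4 junctophilins (Jph1, Jph2, Jph3, Jph4), the 3 ryanodine receptors (Ryr1, Ryr2, Ryr3) and the 3 inositol trisphosphate (IP3) receptors (Itpr1, Itpr2, Itpr3). They were taken by gene symbol, 10 of the 32285 features of the RNA matrices. The set was chosen by gene family, but not blind to the data, since Jph1 was selected on its measured RNA difference between diets in granule neurons of these same libraries. Its diet values in granule cells are therefore given here as a description with no test.

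Junctophilins are proteins of the endoplasmic reticulum that reach across to the plasma membrane and hold both membranes close together. At such contacts, calcium that enters through surface channels can open ryanodine receptors, and calcium stored in the reticulum is then released. IP3 receptors release the same store after a surface receptor has activated phospholipase C. Jph1 and Jph2 are best known from skeletal muscle and heart, and Jph3 and Jph4 from the brain, where junctophilins couple ryanodine receptors to calcium channels and calcium-activated potassium channels that shape the afterhyperpolarisation.

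The nuclei came from wild-type C57BL/6J mice whose mothers ate a diet with folic acid (FA) at 2 mg/kg, the control diet (MF), or at 20 mg/kg, an excessive dose (HF). Dams were 8 weeks old, by the sample labels, and ate the diet from 2 weeks before mating through pregnancy and lactation, and male pups were taken at 21 days of age. RNA and open chromatin were read from the same nuclei, with 2 libraries per diet (MF1, MF2, HF1 and HF2). The study calls the libraries of a diet biological replicates, and the number of pups or litters behind each was not stated.

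After filtering, 11518 of 14297 nuclei were kept, between 2249 and 3473 per library, with library medians of 6117 to 7053 UMIs (unique molecular identifiers, each a counted RNA molecule). Chromatin depth was 54182160 to 64146921 cut counts per library. Pairs of libraries shared 13 to 27 cell barcodes. Cell types are clusters of nuclei named from marker genes, and each name means "like" that type. The neurons were mature granule-like (DG-M, 1870 nuclei), immature granule-like (DG-i, 828), CA1 pyramidal-like (CA1, 878), CA3 pyramidal-like (CA3, 484) and inhibitory neuron-like (INH, 765), and 5093 nuclei in all were excitatory neuron-like (EXC). The glial and other types were astrocyte-like (AST, 1453), oligodendrocyte precursor-like (OPC, 935), oligodendrocyte-like (ODC, 629), microglia-like (MG, 692) and vascular- or meningeal-like (VASC, 144). The name VASC is broad. A cluster of 120 of its nuclei had Dcn, Col1a1 and Col1a2 among its raised markers, and not Cldn5, Flt1 or Pecam1. The summed level of the 18 DG-M markers was 8745 CPM (counts scaled to the same library total) in DG-M against 3018 in DG-i, and that of the 21 DG-i markers was 6832 CPM in DG-i against 3368 in DG-M. The clusters were named from these same markers, so the sums describe the types and are no support for the names. The VASC nuclei also carried excitatory neuron markers, 10005 and 2850 CPM in the MF libraries and 7318 and 5836 in the HF libraries, and their part in the VASC values below was not tested. Choroid plexus markers summed to 8517 CPM in VASC and 4911 CPM in MG of HF1, against at most 336 and 41.5 CPM in the other libraries.

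The promoters of 7 of the 10 genes were listed in the RefSeq table used here (GRCm38.p6). Those of Itpr2, Itpr3, Ryr2 and Ryr1 are shown, as the 250 bases before the RefSeq gene start on the gene's strand, because the account of accessibility at the gene start turns on the first 3 of them, and Ryr1 had no region over its start with a peak in all 4 libraries. Capitals mark CG pairs. The Itpr2 promoter lies at chr6:146502224-146502473 (minus strand), that of Itpr3 at chr17:27057054-27057303 (plus strand), that of Ryr2 at chr13:12106946-12107195 (minus strand) and that of Ryr1 at chr7:29125152-29125401 (minus strand).
Itpr2: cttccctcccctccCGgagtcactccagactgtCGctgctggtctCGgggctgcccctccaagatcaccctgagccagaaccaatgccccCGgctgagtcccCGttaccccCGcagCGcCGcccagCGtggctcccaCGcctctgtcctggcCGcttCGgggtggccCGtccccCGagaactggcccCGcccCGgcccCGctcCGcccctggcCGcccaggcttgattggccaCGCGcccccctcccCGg
Itpr3: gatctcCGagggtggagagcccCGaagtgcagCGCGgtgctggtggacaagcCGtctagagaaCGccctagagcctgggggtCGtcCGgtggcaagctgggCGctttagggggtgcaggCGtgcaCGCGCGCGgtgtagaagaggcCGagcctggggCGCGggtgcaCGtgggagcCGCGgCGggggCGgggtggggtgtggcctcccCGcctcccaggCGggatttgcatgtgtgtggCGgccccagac
Ryr2: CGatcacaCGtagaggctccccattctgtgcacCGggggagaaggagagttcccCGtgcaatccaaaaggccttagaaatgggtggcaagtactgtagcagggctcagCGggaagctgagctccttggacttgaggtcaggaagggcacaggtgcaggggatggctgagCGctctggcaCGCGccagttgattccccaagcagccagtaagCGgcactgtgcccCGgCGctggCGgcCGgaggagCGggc
Ryr1: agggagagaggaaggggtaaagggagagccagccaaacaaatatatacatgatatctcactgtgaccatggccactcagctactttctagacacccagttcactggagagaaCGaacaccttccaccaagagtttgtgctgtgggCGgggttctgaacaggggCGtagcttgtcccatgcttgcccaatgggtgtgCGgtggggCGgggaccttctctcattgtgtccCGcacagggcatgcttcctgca
CG pairs numbered 25 in the Itpr3 promoter, 22 in Itpr2, 14 in Ryr2 and 6 in Ryr1. Over all 32851 listed promoters the lower quartile was 2, the median 6 and the upper quartile 16, so Itpr2 and Itpr3 lay above the upper quartile and Ryr1 at the median. Jph4 held 5.

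The middle 300 bases of 3 accessible regions of Ryr2, Ryr3 and Itpr1 that differed between neuron types are shown as well (GRCm38.p6, plus strand). Each was picked as the called region with the largest absolute log2 difference of its gene in a contrast, so it is an extreme. Capitals mark matches on either strand to CAGATG and CAGCTG (E boxes, bound by proneural factors), TGANTCA (the AP-1 motif) and ACAAAG (the core of SOX and TCF motifs), each counted on its own. The Ryr2 region is at chr13:11752129-11752428 and overlaps a coding exon, the Ryr3 region at chr2:113016261-113016560 is intronic, and so is the Itpr1 region at chr6:108447563-108447862.
Ryr2: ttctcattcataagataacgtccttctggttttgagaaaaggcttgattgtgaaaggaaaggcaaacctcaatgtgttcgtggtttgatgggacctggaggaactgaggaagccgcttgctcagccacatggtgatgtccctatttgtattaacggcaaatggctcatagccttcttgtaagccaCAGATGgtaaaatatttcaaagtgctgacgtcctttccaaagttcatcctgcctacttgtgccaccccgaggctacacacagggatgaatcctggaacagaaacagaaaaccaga
Ryr3: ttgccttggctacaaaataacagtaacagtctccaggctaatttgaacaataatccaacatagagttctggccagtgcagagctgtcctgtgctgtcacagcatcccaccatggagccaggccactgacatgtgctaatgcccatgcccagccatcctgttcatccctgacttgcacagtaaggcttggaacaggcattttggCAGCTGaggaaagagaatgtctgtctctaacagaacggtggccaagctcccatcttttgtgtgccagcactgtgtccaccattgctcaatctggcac
Itpr1: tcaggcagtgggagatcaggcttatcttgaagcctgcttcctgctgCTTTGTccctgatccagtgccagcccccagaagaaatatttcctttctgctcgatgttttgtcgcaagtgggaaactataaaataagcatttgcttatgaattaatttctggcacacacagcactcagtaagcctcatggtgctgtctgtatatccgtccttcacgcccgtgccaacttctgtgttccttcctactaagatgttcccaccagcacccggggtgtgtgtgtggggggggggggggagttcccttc
The Ryr2 window held 1 CAGATG, the Ryr3 window 1 CAGCTG and the Itpr1 window 1 ACAAAG read on the minus strand. Among the 300-base centres of 154764 regions, 35.7% held CAGATG, 23.9% CAGCTG, 14% TGANTCA and 22.7% ACAAAG, so each match is common.

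The 10 genes differed in where they were highest. Ryr2 and Jph1 were highest in mature granule nuclei, Ryr1 was highest of the named types in both granule stages, which overlapped, Ryr3 and, among the named neuron types, Itpr1 were highest in CA1, and Itpr2 was highest in OPC, MG and AST. Jph3 and Jph4 were spread over all the named neuron types, and Jph2 and Itpr3 were close to absent from them. Levels are CPM per library, and since clusters were made from the same RNA, differences between cell types are descriptions without a p-value. In such sums, fewer expressing nuclei and less RNA per nucleus cannot be told apart.

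**Figure D1:**
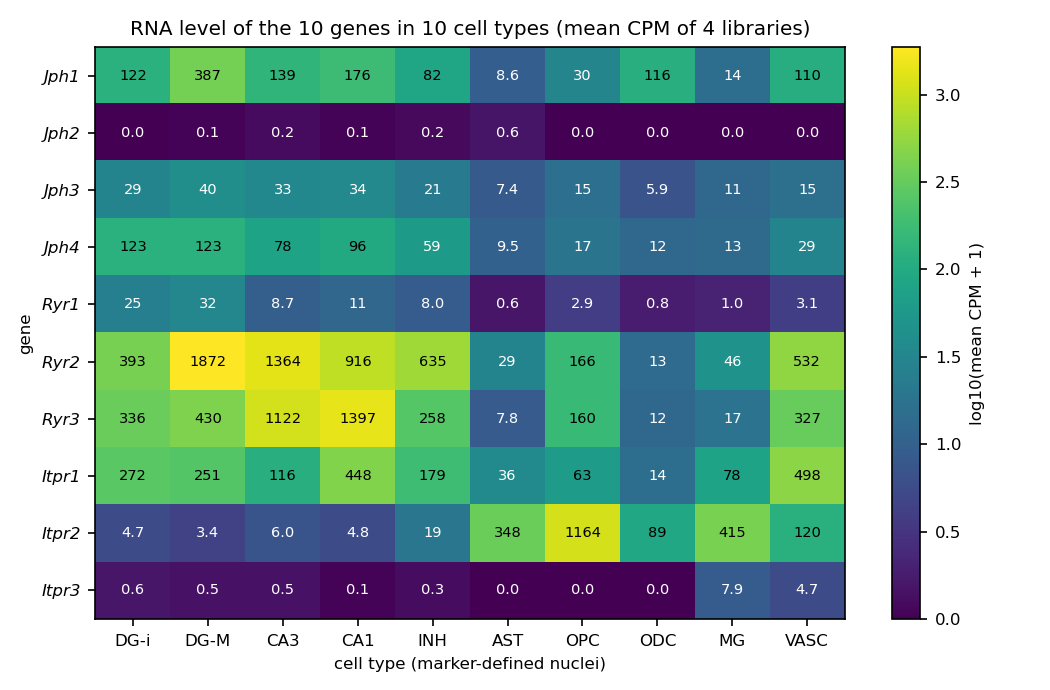
Mean RNA level (CPM over 4 libraries, printed in each cell) of the 10 genes (rows) in 10 marker-defined cell types (columns), with colour giving log10 of the mean CPM plus 1. Ryr2 reaches 1872 CPM in DG-M, Ryr3 1397 CPM in CA1 and Itpr2 1164 CPM in OPC, while Jph2 stays under 1 CPM in all columns.

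Jph1, the junctophilin of skeletal muscle triads, was led by DG-M, where it measured 337 and 364 CPM in the MF libraries and 436 and 409 in the HF libraries (387 ± 44.3, SD, n = 4). DG-i stood at 105, 94.9, 132 and 158 CPM in the order MF1, MF2, HF1, HF2 (122 ± 28.3). Every DG-M library lay above every DG-i library, and the log2 difference within libraries was 1.67 ± 0.23 (SD). CA1 followed DG-M at 176 ± 11.8 CPM and CA3 at 139 ± 11.6, and in each of these steps the ranges did not overlap. Below CA1 the order was not resolved, since CA3, DG-i, ODC (116 ± 9.14), VASC (110 ± 60.04) and INH (82.2 ± 9.0) each overlapped the next. OPC at 29.7 ± 5.13, MG at 14 ± 7.3 and AST at 8.56 ± 4.39 CPM were lowest, although the OPC mean was 14.2 CPM after thinning, the MG mean 95.7 CPM at a higher clustering resolution and the AST mean 70.4 CPM with the member and pathway genes in the clustering. With each nucleus thinned to 1500 UMIs, a Jph1 UMI was found in 42.7% ± 4.26 of the mature and 13.1% ± 1.57 of the immature granule nuclei, against 0.789% of MG nuclei. Without thinning the shares were 87.6%, 26.6% and 1.14%, at median depths of 7662 UMIs per nucleus in DG-M, 3081 in DG-i and 1759 in MG, and nuclei too shallow to thin numbered 5 in DG-M, 20 in DG-i and 193 in MG.

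Jph4 and Jph3, the neuronal junctophilins, were present in all the named neuron types, with the lowest mean among them in INH. The range of INH overlapped that of CA3 for Jph4 and that of DG-i for Jph3. Jph4 measured 132, 127, 125 and 107 CPM in DG-M and 92.7, 143, 109 and 147 in DG-i, in the order MF1, MF2, HF1 and HF2. The ranges of both stages overlapped, with means of 123 ± 11.2 and 123 ± 26.4 CPM. Jph4 was at 96.4 ± 8.06 CPM in CA1, 77.9 ± 13.7 in CA3 and 59.0 ± 4.15 in INH, against 9.45 to 17.4 in AST, ODC, MG and OPC. Of these, MG was at 43.3 CPM at a higher clustering resolution and AST at 28.5 with the member and pathway genes in the clustering. Jph3 ranged from 20.7 ± 4.38 CPM in INH to 40.2 ± 7.59 in DG-M, with CA1 at 33.8 ± 3.43, CA3 at 33.0 ± 3.99 and DG-i at 29.1 ± 6.41. Its glial values ran from 5.94 CPM in ODC to 14.9 in OPC.

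Levels were compared between genes per length, since intronic RNA is counted in nuclei and long genes collect more of it. Jph4, a gene of 10.1 kb at chr14:55106826-55116935 (mm10), had 121 CPM per 10 kb of gene span in DG-M, the highest of the 10 there. Ryr2 followed with 33.8, spread over 554 kb at chr13:11553102-12106945, and Jph1 with 29.0 over 133 kb at chr1:16964560-17097889. In the same nuclei Itpr1 had 7.41, Ryr3 7.33, Jph3 6.21 and Ryr1 2.59 CPM per 10 kb. Per kb of exon the order in DG-M changed, with Jph1 first at 77.4 CPM, then Ryr2 at 65.0, Ryr3 at 22.6 and Jph4 at 17.4.

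Jph2, the cardiac junctophilin, was barely seen. It had 2 counts or fewer in each of the 10 cell types, including 1 count among 15707525 UMIs in DG-M and 0 in DG-i, OPC, ODC, MG and VASC. A count of 0 allows a level of up to 0.755 CPM in OPC, 0.940 in ODC, 1.04 in DG-i, 2.32 in MG and 5.28 in VASC (3 counts over all 4 libraries, counting error only).

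Ryr2, the ryanodine receptor of heart and brain, reached the highest CPM of the 10 genes, although Ryr3 was higher in CA1 and Itpr2 in AST, OPC, ODC and MG. DG-M nuclei held 1781 and 1929 CPM of Ryr2 with MF and 1746 and 2031 with HF (1872 ± 133). DG-i nuclei held 334, 456, 392 and 388 CPM (393 ± 49.96). The stages were separated by a log2 difference of 2.26 ± 0.17 within libraries. CA3 stood between them at 1364 ± 119 CPM, ahead of CA1 at 916 ± 69.1 and INH at 635 ± 75.7, and no neighbouring pair from DG-M down to INH overlapped. The DG-i mean was 198 CPM at a higher clustering resolution. After thinning, a Ryr2 UMI was found in 92.9% ± 1.41 of mature granule, 31.3% ± 5.80 of immature granule and 3.37% of MG nuclei (99.95%, 45.4% and 3.69% unthinned). In MG, 3 libraries had 12.8 to 21.6 CPM and MF2 had 134. VASC nuclei had 201 CPM in MF2, where their neuronal markers were lowest, and 564 to 771 in the other libraries.

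Ryr3, the third ryanodine receptor, was higher in the pyramidal than in the granule types. CA1 nuclei held 1415, 1441, 1253 and 1480 CPM (1397 ± 100) and CA3 nuclei 1111, 1151, 1046 and 1181 CPM (1122 ± 58.3), in the order MF1, MF2, HF1 and HF2. DG-M nuclei held 396, 459, 423 and 441 CPM (430 ± 27.1), below every pyramidal library. DG-i nuclei held 234, 331, 374 and 403 CPM (336 ± 73.9), a range that overlapped DG-M. INH was at 258 ± 82.0 CPM (148 without nuclei of high doublet score) and OPC at 160 ± 15.0. Within CA1 the level differed between subclusters, 853 CPM in subcluster 4 (350 nuclei) and 1837 in subcluster 8 (528 nuclei), where the lowest library of the second, 1672, exceeded the highest of the first, 950.

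Ryr1, the skeletal muscle receptor, was scarce, with its highest levels among the named types in both granule stages. DG-M had 33.7, 32.5, 33.5 and 26.6 CPM and DG-i had 23.2, 25.1, 25.5 and 26.9 CPM. CA1 had 10.9 ± 2.18, CA3 8.69 ± 2.61 and INH 8.05 ± 0.81, all below every granule library, while unnamed excitatory subclusters 6 (210 nuclei) and 7 (120 nuclei) had 29.4 and 31.8. AST, OPC, ODC and MG had under 3 CPM each. Within DG-M, subcluster 2, whose leading genes include haemoglobin genes, held 57.2 CPM of Ryr1 against 15.1 to 20.6 in the 3 other subclusters.

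**Figure D2:**
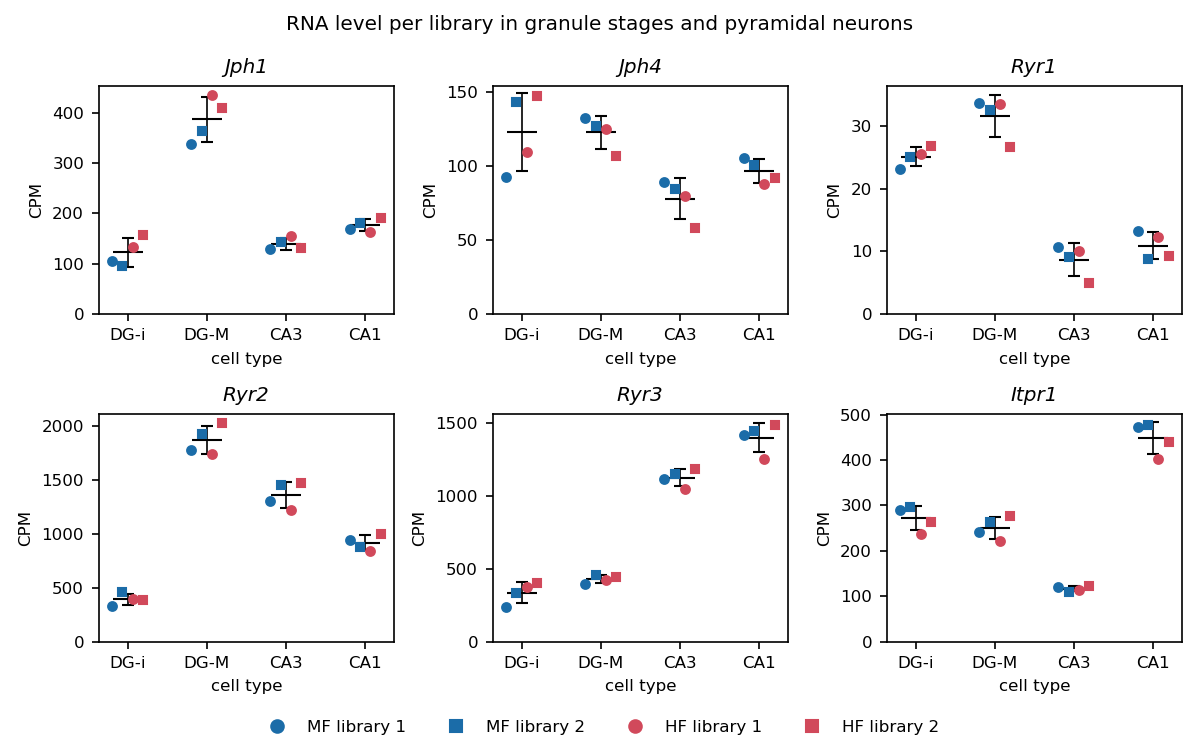
RNA level (CPM) of Jph1, Jph4, Ryr1, Ryr2, Ryr3 and Itpr1 in immature (DG-i) and mature (DG-M) granule-like, CA3-like and CA1-like nuclei, with 1 point per library, a line at the mean and bars of 1 SD (n = 4). All 4 points of Jph1 and Ryr2 in DG-M lie above those in DG-i, CA3 and CA1, while Ryr3 is lower in both granule stages than in CA3 and CA1.

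Itpr1, the IP3 receptor best known from Purkinje cells, was highest among the named neuron types in CA1, at 473, 478, 402 and 439 CPM (448 ± 35.2). An unnamed excitatory subcluster of 138 nuclei, subcluster 10, overlapped it at 452, 511, 355 and 548 CPM (466 ± 84.3). CA3 was lowest of the named neuron types, at 121, 110, 113 and 123 CPM (117 ± 6.11). Both granule stages lay between and overlapped each other, DG-i at 272 ± 27.0 and DG-M at 251 ± 23.5. VASC had 356 and 702 CPM with MF and 431 and 501 with HF, the highest library, MF2, being the one with the lowest neuronal marker level. Glial levels ran from 14.1 ± 1.74 CPM in ODC to 77.6 ± 23.2 in MG. The MG mean was 51.7 CPM without nuclei of high doublet score, and AST was at 83.7 with the member and pathway genes in the clustering. In DG-M subcluster 2 the level was 377 CPM, against 162 to 223 in the other subclusters.

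Itpr2, the IP3 receptor of astrocyte calcium signals, was low in the neuron types named here and highest in OPC, MG and AST. OPC nuclei held 983, 1220, 1228 and 1225 CPM (1164 ± 121) and MG nuclei 381, 513, 378 and 388 CPM (415 ± 65.5). AST nuclei held 308, 381, 307 and 398 CPM (348 ± 48.0), overlapping MG. VASC was at 120 ± 59.0 CPM (198 with nuclei weighted equally) and ODC at 89.0 ± 21.0 (57.0 thinned). INH was at 18.5 ± 2.99 (12.2 without nuclei of high doublet score), and the 4 excitatory types lay between 3.39 CPM in DG-M and 6.02 in CA3. After thinning, 65.5% ± 3.45 of OPC, 45.9% of MG and 38.8% of AST nuclei had an Itpr2 UMI, against 0.56% of DG-M nuclei (84.8%, 49.7%, 54.4% and 2.18% unthinned). Too shallow to thin were 23 OPC and 72 AST nuclei.

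The OPC mean covered clusters that differed widely. Itpr2 was at 442, 554, 593 and 538 CPM in cluster 4 (574 nuclei) and at 1621, 2017, 1702 and 1844 CPM in cluster 11 (361 nuclei). It was at 287 ± 43.1 CPM in ODC cluster 0 and at 12.0 ± 6.2 in ODC cluster 21, which holds 501 of the 629 ODC nuclei. No library of one cluster overlapped a library of another. Cluster 4 did overlap MG, at 378 to 513 CPM, so the separation of OPC from MG rested on cluster 11. Jph1 was highest where Itpr2 was lowest, with 13.4 ± 0.8 CPM in cluster 4, 45.6 ± 7.8 in cluster 11, 48.1 ± 23.3 in cluster 0 and 141 ± 11.5 in cluster 21. Ryr3 had its highest level in cluster 4, at 256 ± 12.7 CPM, followed by 64.9 ± 19.5, 29.6 ± 27.0 and 5.8 ± 4.0 in the same order of clusters. For Jph1 and Ryr3 the libraries of clusters 11 and 0 overlapped, and for Ryr3 those of clusters 0 and 21 did too. None of the 10 genes was used to make the clusters.

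**Figure D3:**
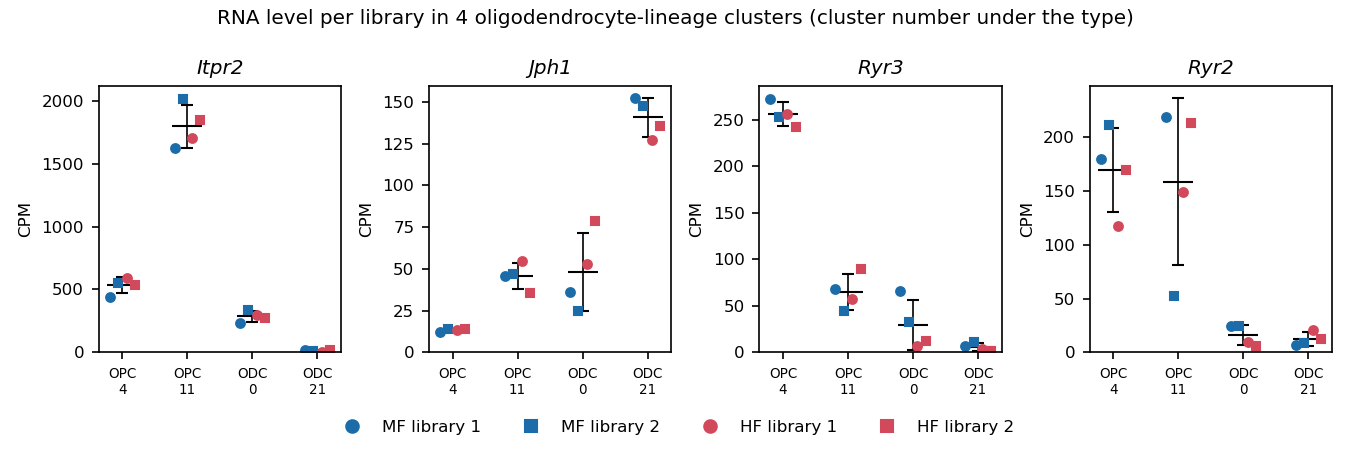
RNA level (CPM) of Itpr2, Jph1, Ryr3 and Ryr2 in the 2 OPC-like clusters (4 and 11) and the 2 ODC-like clusters (0 and 21), with 1 point per library, a line at the mean and bars of 1 SD (n = 4). Itpr2 peaks in cluster 11 at 1621 to 2017 CPM, Jph1 is highest in cluster 21, and Ryr3 is highest in cluster 4.

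Itpr3 was found in few nuclei. MG had 10 counts in all, 4 and 2 with MF and 3 and 1 with HF, a mean of 7.92 ± 2.89 CPM (12.7 thinned). VASC had 2 counts, and none of DG-M, DG-i, CA1, CA3 and INH had more than 7. EXC as a whole had more counts than MG, 17 and 6 with MF and 16 and 10 with HF (0.876 ± 0.287 CPM), most of them in excitatory nuclei outside the 4 named subtypes. AST, OPC and ODC had 0, which allows up to 0.743, 0.755 and 0.940 CPM. Itpr3, Jph1, Ryr1, Ryr3 and Itpr1 each overlap an annotated antisense or neighbouring gene (Itpr3os, Gm28376, Gm38979 and Gm26604, Aven, and Gm44040). The strand setting of the counting was not given in the sources used here, so reads from such pairs may not be separable.

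The genes whose pattern over the 10 cell types was most like that of each member were found by Pearson correlation of log2 CPM over 11318 genes. These are descriptions over 10 points from the same libraries and clusters. Jph1 was closest to Gm28376 (r = 0.991), the gene antisense to it, and then to Gm43376 (0.964) and Crtac1 (0.956). Ryr2 was closest to Clvs2 (0.993), Kcnj6 (0.992) and Cdh12 (0.991), Itpr1 to Acvr1b (0.968) and Itpr2 to Tcf7l2 (0.988). Jph4 and Ryr1 were among each other's 3 closest genes (0.973). Among the members, Jph3 and Jph4 had r = 0.952, Ryr2 and Ryr3 had 0.945, and Itpr2 had negative values with the 7 others tested, from -0.560 with Itpr1 to -0.916 with Jph4.

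A fixed rule was then applied over all genes, counting those at least 2-fold apart in the same direction in each of the 4 libraries, with a mean of at least 10 CPM in one of the types compared. In DG-M against DG-i, 7 members entered. Higher were 2, Jph1 and Ryr2, where the rule took 5.89% of all genes, and lower were 0, where it took 8.99%. The median log2 difference was 0.38 over the 7 members and -0.26 over all genes. In DG-M against CA1, 1 of 7 was higher, Ryr1 at a log2 difference of 1.54 ± 0.23 (5.86% of all genes), though with nuclei thinned to 1500 UMIs 0 members met the rule, Ryr1 included. Lower was 1, Ryr3 at -1.70 ± 0.12 (5.68%). In DG-M against CA3, Jph1 at 1.47 ± 0.13 and Ryr1 at 1.88 ± 0.35 were higher (4.72%) and Ryr3 at -1.39 ± 0.09 was lower (5.34%). Ryr1 was under 10 CPM in CA3 and entered only through DG-M, so its place in that count is no support.

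Itpr1 was the only one of the members to pass the rule between the pyramidal fields. In CA3 against CA1 it was lower at a log2 difference of -1.94 ± 0.14 (2.65% of all genes were lower), and 0 members were higher (2.79%). In INH against EXC, 1 of 8 members was higher, Itpr2 at 1.91 ± 0.33 (5.01%), but it entered only through its 18.5 CPM in INH (4.96 in EXC), so nothing is read from that count. Lower were 3, Jph1 at -1.37 ± 0.20, Ryr1 at -1.22 ± 0.17 and Ryr3 at -1.68 ± 0.35 (2.94%), though Ryr1 entered only through EXC and no longer met the rule at a higher clustering resolution.

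Other genes of the same calcium system passed the 2-fold rule in both directions between the granule stages, where 5.89% of all genes were higher in DG-M and 8.99% lower. Of 7 partners of the junction that entered, 1 was higher in DG-M, Tmem38a (a cation channel of the reticulum), at 83.7 CPM against 30.8, and 1 was lower, Calu (a luminal calcium-binding protein), at 19.9 against 42.7. Of 23 channel regulators, Ahcyl2, a relative of the IP3 receptor inhibitor Ahcyl1, was higher at 1704 CPM against 230, and Bcl2, which binds IP3 receptors, was lower at 9.46 against 122. None of 8 genes of store refilling passed in either direction, and Stim2, the reticulum's calcium sensor, had 236 CPM against 109. Of 14 surface channels and pumps, Kcnn3, Slc8a2 and Atp2b2 were higher and Kcnn2 and Slc8a1 lower. Kcnn2 and Kcnn3 are small-conductance potassium channels opened by calcium, with log2 differences of -1.55 and 1.73. Of 15 genes that make or remove IP3, 4 were higher, among them Plcg2, Itpka and Itpkb, and 1 was lower, Plcb4. Itpka, a kinase that phosphorylates IP3, had a log2 difference of 2.18, and Plcb4, a phospholipase C, one of -4.37. Bcl2, Plcb4, Plcg2 and Itpkb were under 10 CPM in the lower stage and entered only through the other, so their places in these counts are no support.

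The diets were compared next, the question being whether maternal FA intake went with a change in any of these genes. Jph1 in granule cells is given as values only. In DG-M it averaged 351 CPM in the MF and 423 in the HF libraries, a ratio of 1.21. In DG-i the averages were 99.8 and 145 CPM, a ratio of 1.45, in EXC 199 and 227 CPM, a ratio of 1.14, and in all nuclei 157 and 172 CPM, a ratio of 1.10. In each of these sets both HF libraries lay above both MF libraries. The sets are nested, since EXC and all nuclei contain the granule nuclei, so they are not separate observations. In CA1, CA3 and INH the diets overlapped, at ratios of 1.01, 1.05 and 0.986. In ODC both HF libraries lay below both MF libraries, at 0.901, and AST, where they lay above, is given below.

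None of the members was called in a tested diet contrast. With 2 libraries per diet, a gene that was not called may still differ. Called means a false discovery rate (FDR) under 0.05 and a change of at least 1.2-fold by the edgeR quasi-likelihood test over all genes. Over 11 sets of nuclei, 72 member tests were made without those of Jph1 named above, 0 were called and 1 had an unadjusted p under 0.05. Among all genes the share called was 0.0398% in OPC (4 of 10060 genes) and 0.0% in each of the other sets, which were all nuclei, the EXC, INH, AST, ODC and MG nuclei, and the CA1, CA3, DG-M and DG-i subsets. DESeq2 called 0 genes in each set. At an unadjusted p under 0.05, edgeR had 139 (MG) to 247 (INH) genes and DESeq2 18 (DG-i) to 78 (all nuclei).

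Apart from Jph1 in granule cells, the smallest unadjusted p-values were those of Ryr3 in ODC, Jph1 in AST and Ryr3 in DG-i. Ryr3 in ODC had 15 and 8 counts with MF and 5 and 5 with HF, or 19.0, 16.6, 4.72 and 5.79 CPM. The HF libraries were below the MF libraries, by a log2 difference of -1.72 ± 0.60 (SE), with an unadjusted edgeR p of 0.012 and an FDR of 1.0. Jph1 in AST had 3.13, 7.10, 10.9 and 13.1 CPM, both HF libraries being higher, at a log2 difference of 1.15 ± 0.63, with an unadjusted edgeR p of 0.086 and an FDR of 1.0. That value was 0.70 without MF1, 1.99 without MF2 and 0.43 with the member and pathway genes in the clustering. Ryr3 in DG-i had a log2 difference of 0.51 ± 0.28, with an unadjusted edgeR p of 0.088, and this value was 0.23 without MF1 and 0.84 without MF2. In the types where they were highest, the log2 difference was 0.11 ± 0.33 for Ryr2 in DG-M, 0.19 ± 0.29 for Itpr2 in OPC and -0.01 ± 0.21 for Ryr3 in CA1, each smaller than its SE. Jph4 was lower in both HF libraries than in both MF libraries in DG-M, CA1 and CA3, by small amounts. Its log2 difference was -0.09 ± 0.19 in DG-M and -0.27 ± 0.19 in CA3, whereas in DG-i the diets overlapped, with the higher mean in HF. Other members separated by diet too, such as Itpr1, lower with HF in CA1, DG-i and ODC, and Ryr1, higher with HF in DG-i. The share of all genes that separate in this way was not counted, so nothing is read from it.

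Ryr2 in MG was not tested, because it did not pass the filter on low counts. Without MF1, the fit passed it and called it lower in HF, at a log2 difference of -3.13 with an FDR of 0.00127, a value that rests on the 134 CPM of MF2 alone. The interaction of diet with granule stage was tested over 12525 genes and called 0.0% of them, including 0 of the 7 members tested apart from Jph1, while 463 genes had an unadjusted p under 0.05. Ryr3 had an interaction of -0.42 ± 0.15, with an unadjusted edgeR p of 0.0099 and an FDR of 0.998. For the other calcium genes, 640 tests were made over 10 sets of nuclei, which were those tested above without the set of all nuclei. Of these, 0 were called and 14 had an unadjusted edgeR p under 0.05. EXC contains the CA1, CA3 and granule nuclei, so these tests are not all separate.

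Chromatin was not used to choose the genes or make the clusters, and was tested. Peaks had been called in each library on its own, and merging them gave 154785 regions with a peak in all 4 libraries. Of these, 233 overlap a member or lie within 2000 bases upstream, of 395 when a peak in any library is enough. Itpr1 had 50 regions, Itpr2 48, Ryr3 46 and Ryr2 43, Ryr1 had 13, Jph1 11, Jph3 10, Itpr3 7, Jph4 3 and Jph2 2. By place, 176 were intronic, 45 exonic, 9 covered a gene or transcript start and 3 lay upstream. Values are cut CPM, the cut counts of a region scaled by all cut counts in the regions with a peak in all 4 libraries. Contrasts between cell types used edgeR with library as a block and an FDR under 0.05.

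Accessibility over the starts of Itpr2 and Itpr3 was highest in the types with the most RNA of these genes, though for Itpr2 not in the same order. At the start of Itpr2, AST had 60.2 cut CPM, OPC 57.8, VASC 55.7 and MG 55.4, against 27.9 in ODC, 13.5 in INH and 2.8 to 5.0 in the excitatory types. At the start of Itpr3, MG had 28.2 and VASC 23.4, against 1.4 to 5.1 elsewhere. The start of Itpr1 was most open in MG (70.2) and VASC (66.3), with the other types at 22.0 to 36.2. That start was least open in CA1, which had the most Itpr1 RNA of the named neuron types. For the ryanodine receptors, the Ryr3 start was open in neurons (21.4 to 31.3) and OPC (25.5) and nearly closed in AST (1.0) and MG (0.1). The Ryr2 start was highest in INH (30.2) and DG-M (27.3 ± 2.8) and lowest in MG (0.2). The Jph1 start was highest in ODC, at 62.7 ± 10.1, ahead of DG-M at 32.9 ± 6.24, although DG-M had the most Jph1 RNA.

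**Figure D4:**
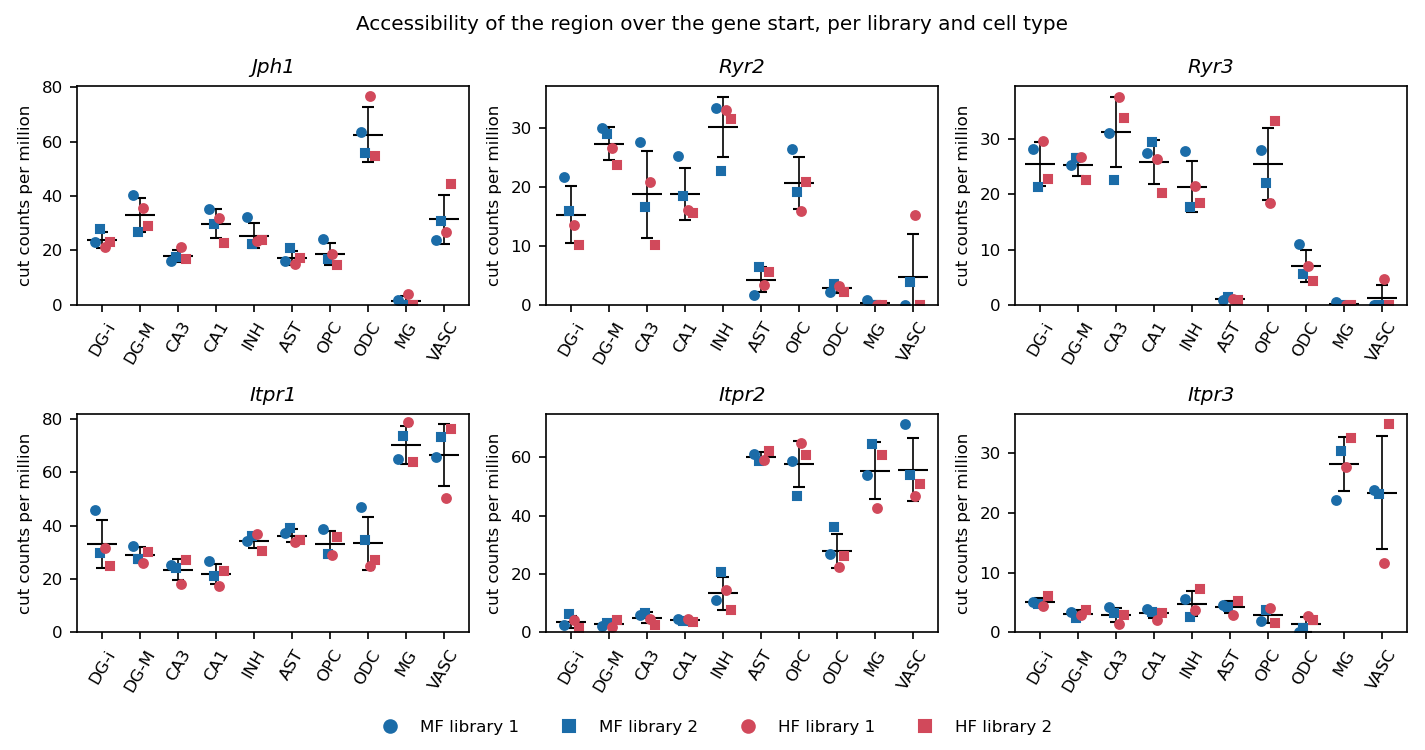
Accessibility (cut CPM) of the region over the gene start of Jph1, Ryr2, Ryr3, Itpr1, Itpr2 and Itpr3 in 10 cell types, with 1 point per library, a line at the mean and bars of 1 SD (n = 4). The Itpr2 start lies at 55.4 to 60.2 in AST, OPC, MG and VASC and at 2.8 to 5.0 in the excitatory types, and the Itpr3 start is open in MG and VASC.

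Between cell types, differences at the gene start did not always follow the RNA. The Jph1 start (chr1:17097470-17098364) had a log2 difference of 0.31 ± 0.14 (SE) in DG-M against DG-i, edgeR FDR 0.0615, and was not called, while against CA3 it was higher by 0.95 ± 0.14 (FDR 4.44e-07). The Ryr2 start (chr13:12106441-12107292) was higher in DG-M than in DG-i by 0.69 ± 0.16 (edgeR FDR 0.000493), than in CA1 by 0.58 ± 0.12 and than in CA3 by 0.68 ± 0.15. The Ryr3 start was called in none of the 4 contrasts. The Itpr1 start was lower in DG-M than in DG-i, at -0.34 ± 0.13 (edgeR FDR 0.0256), and higher than in CA1, at 0.43 ± 0.11, where CA1 had more Itpr1 RNA. The start of a shorter Jph3 transcript was lower in DG-M than in DG-i, at -0.58 ± 0.13.

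All regions of the members were then counted. A region could pass the low-count filter through a single type of a pair, and such regions were not separated from the rest. In DG-M against DG-i, 78 of 161 tested member regions were higher (30.1% of all regions were) and 21 were lower (24.2%). The median log2 difference was 1.02 over the member regions and 0.18 over all. In DG-M against CA1, 45 of 211 were higher (30.5%) and 86 lower (30.7%). In DG-M against CA3, 52 of 201 were higher (25.8%) and 57 lower (26.2%), both near the background. In CA3 against CA1, 24 of 194 were higher (16.4%) and 60 lower (18.1%). In DG-M against DG-i, 62 of 124 tested intronic regions were higher and 14 lower, and 15 of 27 exonic regions were higher and 5 lower. Of 9 regions over a start, 1 was higher and 2 were lower.

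Ryr2 accounted for much of the first count. Of its 35 regions tested in DG-M against DG-i, 28 were higher and 0 lower, and of the 40 of Itpr1, 20 were higher and 6 lower. Jph1 had 5 higher and 0 lower of 9, Jph3 6 and 1 of 10, and Ryr3 7 and 6 of 27. Against CA1, where their RNA was higher, Ryr3 had 3 regions higher in DG-M and 24 lower of 44 and Itpr1 9 and 24 of 50, while Ryr2 had 16 and 11 of 42. Itpr2 had 4 and 16 of 32, although its RNA was low and overlapped between DG-M and CA1. Itpr1 in CA3 against CA1 had 4 higher and 20 lower of 47, the direction of its RNA, and Itpr2, with 1 higher and 13 lower of 27, had hardly any RNA in either type. Regions of 1 gene are not independent of each other.

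The values of the regions printed above were as follows. The Ryr2 region (chr13:11751791-11752767, 355 kb into the gene, over a coding exon) had 90 cuts in DG-M, 2.01 to 2.51 cut CPM per library, and 0 in DG-i (edgeR FDR 0.000409). It was at least 9.60-fold higher in DG-M, taking 3 cuts over the DG-i group as the limit. The Ryr2 region passed the low-count filter only through DG-M, so its call is no support. The Ryr3 region (chr2:113015948-113016873, 201 kb in) was 1 of the 6 of its gene that were lower in DG-M than in DG-i, with 2.27, 4.39, 2.41 and 2.43 cut CPM in DG-M and 26.3, 33.5, 44.9 and 37.5 in DG-i, at -3.78 ± 0.21 (edgeR FDR 2.09e-15). The Itpr1 region (chr6:108447270-108448156, 235 kb in) had 1.13, 2.09, 3.17 and 2.53 cut CPM in DG-M and 26.8, 31.5, 27.9 and 30.8 in CA1, at -3.68 ± 0.19 (edgeR FDR 9.83e-18), and CA3 was lower than CA1 there at -2.73 ± 0.20.

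**Figure D5:**
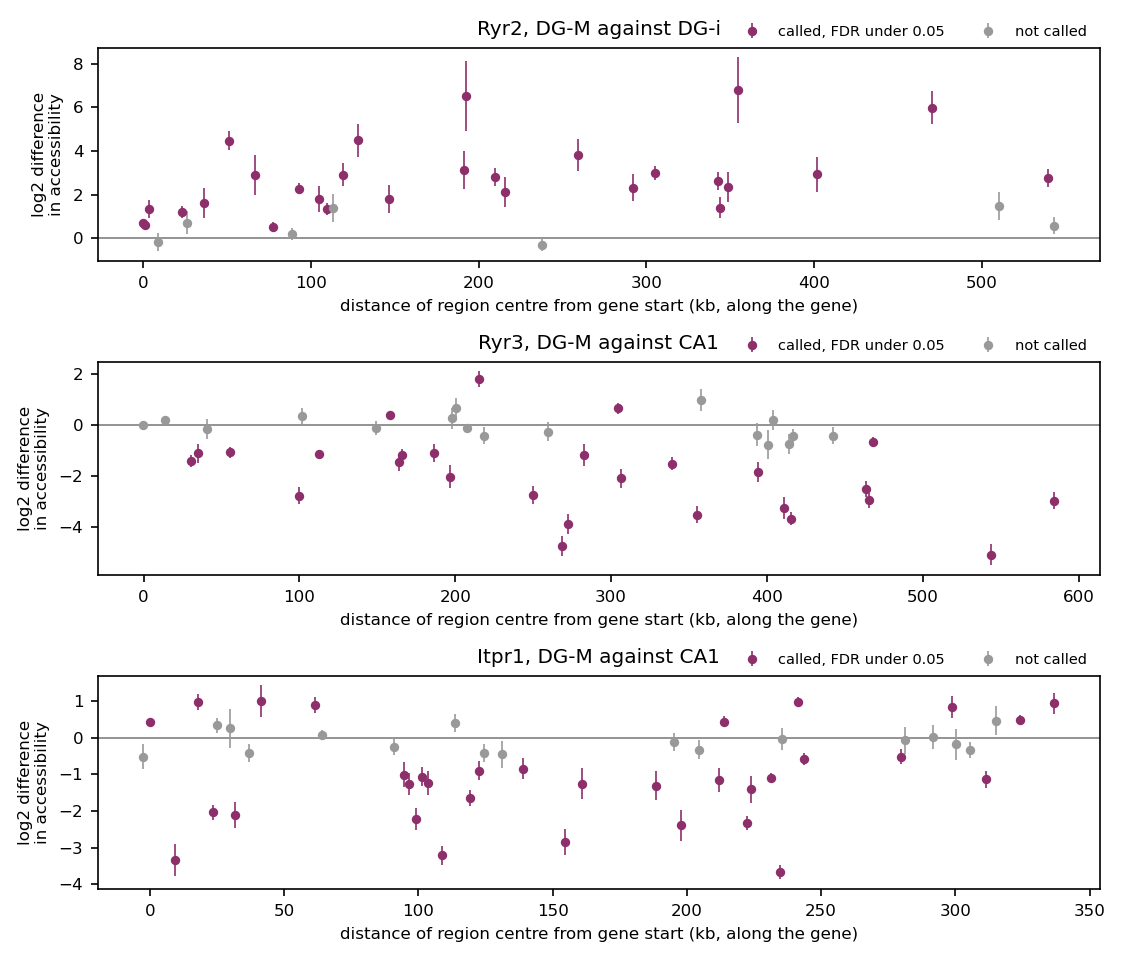
Log2 difference in accessibility (points, with bars of 1 SE) of each tested region along Ryr2 (DG-M against DG-i), Ryr3 and Itpr1 (both DG-M against CA1), by distance from the gene start in kb, with called regions in colour. For Ryr2 all 28 called regions lie above 0, whereas 24 of 27 called regions of Ryr3 and 24 of 33 of Itpr1 lie below 0.

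Members with little RNA also had regions that differed. Each region given here was the called region with the largest absolute log2 difference of its gene in a contrast, so it is an extreme. A Jph2 intron (chr2:163340003-163340931) had 6.47 cut CPM in DG-M and 28.6 in DG-i, a log2 difference of -2.32 ± 0.20, where Jph2 RNA was 1 count and 0. A coding exon of Itpr3 (chr17:27102080-27103031) had 9.85 cut CPM in DG-M against 1.55 in DG-i (2.54 ± 0.39) and 1.07 in CA1 (3.19 ± 0.33). An Itpr2 intron (chr6:146486778-146487721) had 0.474 in DG-M against 16.1 in CA1 (-5.02 ± 0.36). Among the expressed members, a Ryr1 intron (chr7:29088569-29089484) had 8.78 in DG-M against 0.354 in DG-i (4.49 ± 0.56), and a Jph3 intron (chr8:121740438-121741376) 12.5 against 0.840 (3.72 ± 0.40). A Ryr3 coding exon (chr2:112673080-112674011) had 0.269 in DG-M against 9.86 in CA1 (-5.10 ± 0.43) and 9.78 in CA3 (-5.04 ± 0.47). One Itpr1 region (chr6:108504401-108505289) had 152 cuts in DG-M and 2 in DG-i, a depth-scaled ratio of 24.3 (95% exact interval 6.61 to 203, counting error only). That region, too, passed the low-count filter only through DG-M. So did the Ryr1 and Jph3 introns, and the Itpr3 exon in its contrast with CA1. The Itpr2 intron passed only through CA1, and the Ryr3 exon only through the pyramidal type of each contrast. These calls are no support.

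None of these regions was called between diets at the same threshold. Each library was counted over its own peaks, so the bases counted for a region could differ between the diets. In all nuclei 0 of 233 member regions were called (0.0162% of all regions were), and the subsets had 0 of 229 in EXC (0.00653%), 0 of 205 in CA1 (0.0%), 0 of 195 for DG-M (0.00163%) and 0 of 71 for DG-i (0.0%). At an unadjusted edgeR p under 0.05 there were 8, 3, 7, 3 and 3 member regions in these sets, and 6750, 5108, 4483, 4758 and 2063 regions in all.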

How the data were processed

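Hippocampal nuclei were profiled with the 10x Genomics multiome assay. The authors aligned reads to mm10 with Cell Ranger ARC (2.0.1), and the deposited matrices hold raw, unnormalised UMI counts per gene and raw counts per peak for each nucleus, with peaks called in each library on its own. Peaks that overlapped between libraries were merged into regions. The count of a region in a library is the sum over that library's own peaks in it, so the interval counted can differ between libraries. Peak starts were read as 0-based.

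Kept nuclei had at least 500 and at most 7000 genes, mitochondrial UMIs below 2%, and between 1000 and 70000 peak counts. The limits are the authors', but they set the last on unique reads, a different quantity. Their filters on nucleosome signal and start enrichment were not applied, since these need fragment files not used here. Doublets were scored with Scrublet in Scanpy (1.11.5) and not removed, but clusters with a median score above 0.05 were left as mixed. Leiden clustering used 3000 variable genes, 20 components and a resolution of 0.8 (0.5 within EXC), without the 104 member and pathway genes and 132 technical genes. Clusters were named by their share of marker genes raised at least 2-fold, with at least 3 markers. This naming rule was set after the clusters were seen. Members, gene lists and tests were chosen with earlier results of these data known.

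Counts were summed per library and cell type. Diets and chromatin were tested with edgeR (4.0.16) quasi-likelihood fits (TMM, filterByExpr, Benjamini-Hochberg over all features), with library as a block between cell types. The design had the diet alone for the diet contrasts. The scripts were tested on simulated data with known changes, and the share of these that was recovered is not reported here. CPM differences used a prior count of 0.5. Gene positions came from the mm10 annotation and sequences from RefSeq (GRCm38.p6). Named genes were all 10 members, the 3 genes most like each in pattern, and the genes of the pathway lists that passed the 2-fold rule between granule stages or had the highest level of their list in DG-M. A few of these items are not reported here. Alternatives were DESeq2 (1.42.0), RLE scaling, no low-count filter, a replicate block, each library left out in turn, other clustering and doublet settings, thinning, other length scales and folds, and regions with a peak in at least 2 libraries. Python 3.11.15 and R 4.3.3 were used. Intervals and limits for low counts cover counting error only.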

Additional observations from a re-analysis of the deposited data

How the results depend on the processing

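Of the values recomputed for the main results, 335 were labelled the same under the alternatives and 17 moved. Of the other values, 439 were the same, 75 moved and 1 reversed. Both groups mix counts and single genes, and many of the first are counts of 0 set against 0. A count was the same within 1.5 times, a level within its SD, and a single diet difference if its sign and call held. The counts of members called between diets stayed at 0 in every set and alternative, except in MG without MF1, where Ryr2 alone was called (range 0 to 1). Counts over all genes varied more, at 0 to 4 per set with both libraries of each diet, the low-count filter and no block, 6 to 30 without that filter, and 0 to 110 with a library left out (110 in all nuclei without MF2), where the lone library of a diet is assumed to vary like the other pair. Over all regions, leaving out MF2 gave 762 calls in all nuclei against 25. Counts by the fold rule moved as follows. Without a minimum CPM, 1 member, Jph2, was lower in DG-M against DG-i. It had 1 count in DG-M and 0 in DG-i. That outcome follows from the prior count and the unequal depth of the types, so it is no support. In DG-M against CA1, those higher numbered 3 at a fold of 1.5, 0 after thinning, where Ryr1 was lost, 2 without nuclei of high doublet score, 2 with the member and pathway genes in the clustering, and 1 to 3 with a library left out, while those lower numbered 2 at a fold of 1.5. In INH against EXC, those lower numbered 6 at a fold of 1.5, 4 without high doublet scores and 2 at a higher clustering resolution, where Ryr1 was lost. In DG-M against CA3, Itpr1 joined those higher, 3 in all, at a fold of 1.5, thinned, without high doublet scores and at a higher clustering resolution. Of 64 levels of at least 10 CPM, 17 moved by more than their SD and over 1.5 times under at least 1 alternative, 3 of them among 34 in neurons (Ryr2 in DG-i, 198 CPM at a higher clustering resolution, and without high doublet scores Ryr3 in INH, 148, and Itpr2 in INH, 12.2). In glia such moves included those at a higher clustering resolution in MG (Jph1 95.7, Ryr2 464, Ryr3 122 CPM) and, with the member and pathway genes in the clustering, in AST (Ryr2 293, Itpr1 83.7), and Jph1 in OPC was 14.2 to 17.7 under 4 alternatives. These 2 clustering alternatives for levels were chosen after seeing the data. Among the levels the text leads with, smaller moves past the SD were those of Jph1 in ODC (129 CPM thinned, 127 with nuclei weighted equally), Itpr1 in VASC (656 without high doublet scores), Itpr2 in OPC (1025 thinned) and Itpr2 in MG (300.4 at a higher clustering resolution). Itpr3 in MG also moved over 1.5 times, from 7.92 to 12.7 CPM thinned, and was outside the 64 levels because it was under 10 CPM. By exon length, Jph4 ranked 4 and Jph1 ranked 1 in DG-M. The diet difference of Itpr2 in ODC reversed at a higher clustering resolution, to a log2 difference of -0.0198. The causes were not tested. Few counts stand behind Jph2 and Itpr3 in each type, and VASC and MG values rest on few UMIs.

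Replicate numbers were shared between diets, but the labels do not say that they mark a common litter or batch. The correlation of the replicate difference between diets was 0.045 in MG to 0.257 in EXC, over only 2 pairs. With the replicate number as a block, 0 members were called in each set of nuclei and 0 member regions, and the interaction of diet and stage had library as its block already. Over all genes the block gave 21 calls in all nuclei, and 27 in INH, 16 in OPC, 14 in ODC, 12 in AST, 10 in CA3, 9 in DG-M, 7 in DG-i, 2 in EXC, 1 in CA1 and 0 in MG, against 0 in each without it except 4 in OPC. Over all regions it gave 89 in all nuclei, 25 in EXC, 15 in CA1, 4 in DG-M and 8 in DG-i, against 25, 10, 0, 2 and 0.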

Other observations

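Some nuclei lay outside the cell types compared above. Among EXC, 383 nuclei of subcluster 5 could not be named from the markers, and their leading genes were Gpc6, Sgcz and Pdzrn3. Their Itpr1 level was 397 ± 40.8 CPM and their Ryr3 level 460 ± 33.9 (SD, n = 4). They also had the highest Itpr3 level of the excitatory subclusters, 7.35, 2.15, 7.10 and 3.34 CPM in the order MF1, MF2, HF1 and HF2, against 4.17 to 10.7 CPM in MG. Another 66 unnamed nuclei, subcluster 11, had 338 CPM of Jph1 and 1491 CPM of Ryr2, below the DG-M means of 387 and 1872. The 137 Cajal-Retzius-like nuclei had 541 ± 247 CPM of Ryr2, 397 ± 98.3 of Ryr3, 135 ± 44.7 of Itpr1 and 103 ± 37.7 of Jph1. Their counts were small, with 9 to 35 of Jph1 per library.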
